A study of Mus musculus with 12 samples.

Results

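Toll-like receptors recognise conserved microbial molecules, and some of them also respond to molecules released from injured tissue. The transcripts of 10 of these receptors were followed in the injured mouse cecum, namely Tlr1, Tlr2, Tlr3, Tlr4, Tlr5, Tlr6, Tlr7, Tlr9, Tlr12 and Tlr13. They were chosen by gene name on the array, where 18 of the 56605 probes and 10 of the 37074 gene names belonged to them. The cecum came from C57BL/6 mice, and 12 arrays were made, 3 from each of 4 groups. Control mice had a sham operation and gave tissue at 0 h. In the other 3 groups, the cecum had been cauterized with bipolar forceps and tissue was taken 3, 12 or 72 h later. There was no sham control at the later times, so the time from surgery and the burn cannot be told apart. The age of the mice was not given in the sources used here.

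Each receptor is a membrane protein with leucine-rich repeats that bind the ligand and an intracellular TIR domain that binds adaptor proteins. Tlr1, Tlr2, Tlr4, Tlr5 and Tlr6 act mainly at the cell surface on lipoproteins, lipopolysaccharide and flagellin, while Tlr3, Tlr7, Tlr9 and Tlr13 act in endosomes on nucleic acids and Tlr12 in endosomes on profilin. All of them except Tlr3 signal through the adaptor Myd88 to NF-κB and cytokine genes, and Tlr3 and Tlr4 use the adaptor Ticam1. In the gut, these receptors are found on epithelium, macrophages, dendritic cells, neutrophils and lymphocytes.

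The brightness of each spot on these 1-colour Agilent arrays measures the amount of 1 transcript. Levels are log2 intensities from which the 75th percentile of the array was subtracted, and a level of 1 probe cannot be set against that of another probe. On each array, 60.2% to 65.2% of probes stood well above background, no spot was saturated, and replicate arrays correlated across probes at 0.985 to 0.992. The labels give all mice as male, but Xist, the transcript of the inactive X chromosome, was above background on all 12 arrays. The brightest probes of Ddx3y and Eif2s3y, both on the Y chromosome, were above background on 0 arrays, that of Uty on 1 and that of Kdm5d on 12. There were 2 slides. The first held the sham and 3 h arrays and 12 h replicates 1 and 2, and the second held 12 h replicate 3 and the 72 h arrays. The median over all probes lay 0.15 below sham at 72 h on the log2 scale, and differences at this time stand against that shift. Because whole cecum was used, more cells of a type and more RNA per cell cannot be told apart.

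The probes of Tlr1 and Tlr2 are shown because these receptors act as partners, and Tlr2 was called higher at 12 h while Tlr1 was called at no time. Both probes lie on the minus strand in mm9, Tlr1 at chr5:65316115-65316174 and Tlr2 at chr3:83640344-83640403. Capitals mark the codons for phenylalanine and tryptophan at the conserved box 3 of the TIR domain, read in an open frame.
Tlr1 probe: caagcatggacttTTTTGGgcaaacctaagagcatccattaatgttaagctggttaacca
Tlr2 probe: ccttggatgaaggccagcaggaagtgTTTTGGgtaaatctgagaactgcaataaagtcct

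The promoters of 4 receptors are shown beside them, because Tlr2, Tlr6 and Tlr13 rose after the burn and Tlr3 was called at no time. RefSeq promoter windows (GRCm38.p6) were matched for 8 of the 10 receptors, and the 250 bases before the annotated start were searched on both strands. The windows shown are chr3:83841609-83841858 for Tlr2, chr8:45410381-45410630 for Tlr3 and chr5:64959167-64959416 for Tlr6, all on the minus strand, and chrX:106143025-106143274 on the plus strand for Tlr13. Capitals mark the NF-κB consensus in Tlr2 and Tlr3, the interferon-stimulated response element GAAANNGAAA in Tlr6, as its complement, and the PU.1 core GAGGAA in Tlr13.
Tlr2 promoter: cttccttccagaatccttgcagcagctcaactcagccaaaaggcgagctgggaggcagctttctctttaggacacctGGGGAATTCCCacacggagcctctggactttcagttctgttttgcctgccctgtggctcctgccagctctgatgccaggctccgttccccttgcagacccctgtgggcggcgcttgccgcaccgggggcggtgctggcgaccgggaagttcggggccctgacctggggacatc
Tlr3 promoter: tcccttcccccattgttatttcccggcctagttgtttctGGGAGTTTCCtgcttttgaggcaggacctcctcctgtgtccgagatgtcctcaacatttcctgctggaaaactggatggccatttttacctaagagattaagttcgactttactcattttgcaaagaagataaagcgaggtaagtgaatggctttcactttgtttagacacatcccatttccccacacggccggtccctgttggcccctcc
Tlr6 promoter: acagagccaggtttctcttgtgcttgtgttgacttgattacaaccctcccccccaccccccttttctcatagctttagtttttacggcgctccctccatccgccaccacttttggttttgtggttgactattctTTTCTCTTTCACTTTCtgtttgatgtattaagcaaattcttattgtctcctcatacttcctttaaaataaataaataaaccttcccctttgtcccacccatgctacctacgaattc
Tlr13 promoter: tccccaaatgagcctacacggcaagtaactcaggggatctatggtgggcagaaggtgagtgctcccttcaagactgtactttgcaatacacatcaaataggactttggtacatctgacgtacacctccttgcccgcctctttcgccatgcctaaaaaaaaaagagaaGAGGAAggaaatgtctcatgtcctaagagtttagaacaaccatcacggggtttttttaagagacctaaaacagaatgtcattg
Of all 32851 RefSeq windows of this length, 7.25% held the NF-κB consensus, 2.98% the response element and 23.3% the PU.1 core. In Tlr2 the NF-κB consensus matched at 2 overlapping places, and in Tlr6 the response element also matched at 2 overlapping places. The PU.1 core was also present in a window of Tlr1 and in that of Tlr9. The windows of Tlr5 and Tlr12 and a second window each of Tlr1 and Tlr6 held none of these letters. A match describes the letters and was not tested as a binding site, and the NF-κB consensus stood both in Tlr2, which rose, and in Tlr3, which did not.

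The receptors did not move together. A gene was represented by its brightest probe and called when its fold change exceeded 2 and its adjusted p was under 0.05 in limma over all probes. At 3 h, 0 of the 10 receptors were called higher and 2 were called lower (Tlr5 and Tlr12), against 3.26% of all genes called higher and 4.11% called lower. The RefSeq probe of Tlr4 (2.35-fold) and the second probe of Tlr13 (at least 4.52-fold), not the brightest, were called higher at 3 h. At 12 h, 4 were higher (Tlr2, Tlr4, Tlr6 and Tlr13) and 1 was lower (Tlr5), against 4.1% and 4.96% of all genes. At 72 h, 4 were higher (Tlr4, Tlr6, Tlr7 and Tlr13) and 0 were lower, against 4.55% and 4.3% of all genes. The median log2 difference of the 10 receptors from sham was -0.18, -0.03 and 0.38 at the successive times, and that of all genes was 0.08, -0.01 and -0.14. In limma's F-test among the 4 groups, 8 of the 10 passed, all but Tlr1 and Tlr3, and 39.3% of all genes passed. The shares of all genes here and below include genes not above background. The brightest probe of each of the 10 receptors was above background on all 12 arrays, and shares among such genes were not computed.

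Between 3 and 12 h, 5 receptors were called higher (Tlr2, Tlr4, Tlr6, Tlr12 and Tlr13) and 0 lower, against 1.89% of all genes higher and 1.56% lower. From 12 to 72 h, Tlr7 was called higher and Tlr2 lower, against 4.33% and 3.19% of all genes. These comparisons share the 12 h arrays with those against sham, so they are not independent of them. Within the first slide, where 12 h had 2 arrays, the 12 h differences from sham were 1.70 for Tlr2, 1.46 for Tlr4, 1.47 for Tlr6, 2.03 for Tlr13 and -1.31 for Tlr5, all called. With slide as a block, 3 of the 5 rises from 3 to 12 h were called, and those of Tlr2 (limma adjusted p = 0.0827) and Tlr4 (adjusted p = 0.0701) were not.

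**Figure D1:**
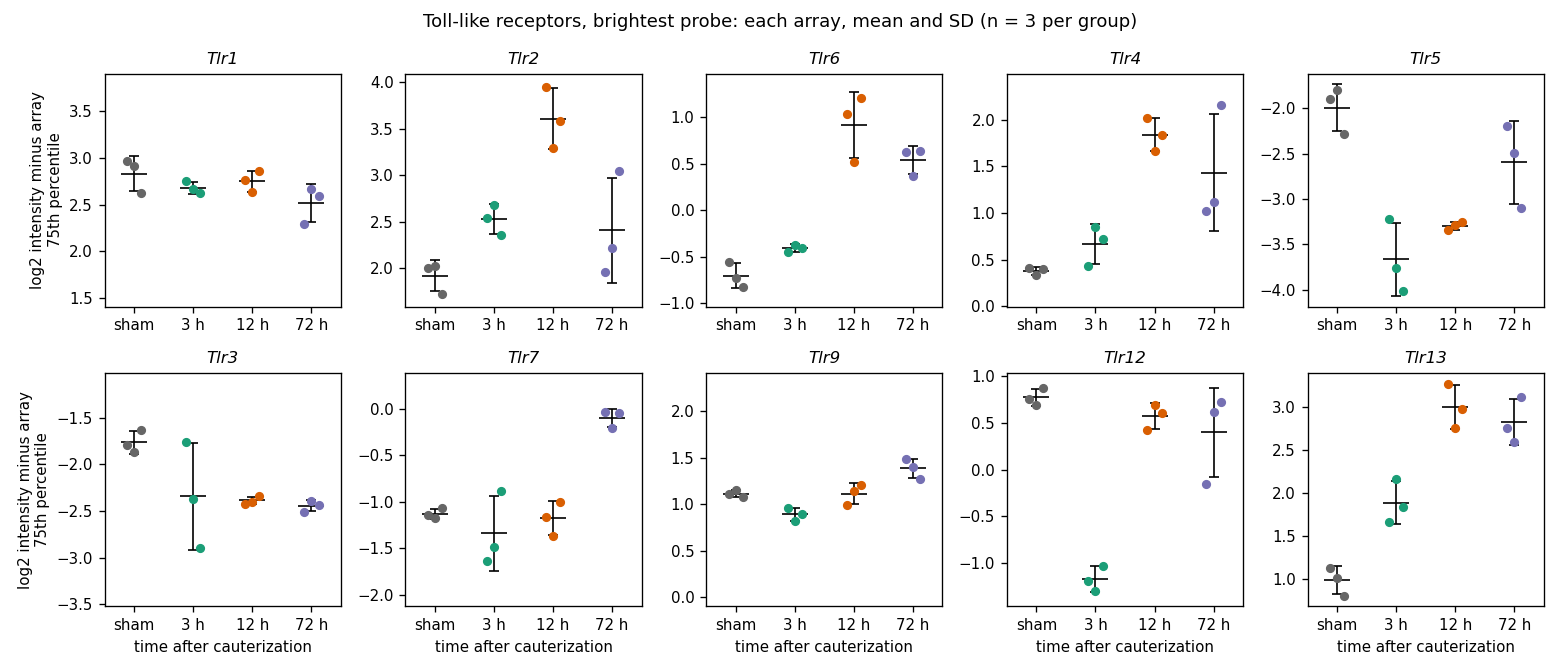
Level of each Toll-like receptor by its brightest probe (log2 intensity relative to the 75th percentile of its array) on the 3 arrays of each group, with coloured points for arrays, black bars for the mean and whiskers for the SD. Tlr12 is low on all 3 arrays at 3 h, Tlr7 is high on all 3 arrays at 72 h, and Tlr2, Tlr4, Tlr6 and Tlr13 are highest by group mean at 12 h.

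Among the receptors for lipoproteins, Tlr2 and Tlr6 rose and Tlr1 was not called. Tlr2, which pairs with either Tlr1 or Tlr6, had levels of 2.0, 2.03 and 1.73 in sham, 2.54, 2.68 and 2.36 in the 3 h group, 3.95, 3.29 and 3.58 in the 12 h group and 1.96, 2.22 and 3.04 in the 72 h group. The sham, 3 h and 12 h arrays did not overlap, whereas the 72 h arrays spread from the sham range to near the 12 h range. Against sham, the log2 difference of Tlr2 was 0.60 ± 0.26 (SE) at 3 h (limma adjusted p = 0.137), 1.69 ± 0.26 at 12 h (adjusted p = 0.00155) and 0.48 ± 0.26 at 72 h (adjusted p = 0.239). The 12 h difference was a 3.22-fold rise. From 12 to 72 h Tlr2 fell by 1.20 on the log2 scale (adjusted p = 0.0119), and without 72 h replicate 1 the difference was -0.98, short of a fold change of 2. The call was also lost with slide as a block (-1.17, adjusted p = 0.14) and within the second slide (adjusted p = 0.355). From 3 to 12 h it rose by 1.08 (adjusted p = 0.0326), a call that was lost (adjusted p between 0.0719 and 0.111) on leaving out any 3 h array or 12 h replicate 1 or 3.

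Tlr6, which with Tlr2 recognises diacylated lipopeptides, is represented by a single probe on the array, at chr5:65344365-65344424 of mm9. Its levels were -0.55, -0.73 and -0.82 in sham, -0.45, -0.37 and -0.40 in the 3 h group, 1.03, 0.52 and 1.20 in the 12 h group and 0.62, 0.37 and 0.64 in the 72 h group. All arrays at 12 and 72 h lay above all sham and 3 h arrays. Tlr6 was 3.06-fold higher than sham at 12 h (log2 difference 1.61 ± 0.17 SE, limma adjusted p = 0.000167) and 2.36-fold higher at 72 h (1.24 ± 0.17, adjusted p = 0.000962). With slide as a block, the difference at 72 h was 0.82 (adjusted p = 0.143), and no sham array shares a slide with the 72 h arrays.

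Tlr1, which with Tlr2 recognises triacylated lipopeptides, had levels of 2.97, 2.91 and 2.62 in sham, 2.75, 2.67 and 2.62 in the 3 h group, 2.76, 2.63 and 2.86 in the 12 h group and 2.29, 2.67 and 2.59 in the 72 h group. The groups overlapped at every time. Its 95% interval against sham ran from -0.45 to 0.15 at 3 h, from -0.39 to 0.22 at 12 h and from -0.62 to -0.01 at 72 h on the log2 scale, so that a 2-fold change lay outside each interval. The second Tlr1 probe, the one printed above, differed from sham by -0.21, -0.06 and -0.33 and was not called either.

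The genes of Tlr1 and Tlr6 are neighbours on chromosome 5, and their courses were compared within each array. The change of Tlr6 against sham exceeded that of Tlr1 by 0.45 at 3 h, 1.70 at 12 h and 1.55 at 72 h on the log2 scale. That of Tlr2 exceeded Tlr1 by 0.76, 1.77 and 0.80. In each of these comparisons the arrays did not overlap. The two-sided exact permutation test gave p = 0.1, the smallest that 3 against 3 arrays allow (adjusted 0.129 over 9 comparisons). It could not fall under 0.05 and so cannot decide whether the courses differ. Between Tlr2 and Tlr6 the change differed by 0.31 at 3 h (exact permutation p = 0.2), by 0.07 at 12 h (exact permutation p = 0.7) and by -0.75 at 72 h (exact permutation p = 0.1).

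Tlr4, the receptor for lipopolysaccharide, rose at 12 and 72 h by each of the 3 probes annotated to it, but the probes differed at 3 h. The brightest probe is annotated to an Ensembl transcript and lies at chr4:66591199-66591258 of mm9, 87417 bases from the RefSeq probe of Tlr4, whereas the RefSeq gene is 19031 bases long in GRCm38.p6. By these coordinates it lies outside the RefSeq gene and would not read the reference transcript. This probe stands for Tlr4 in the counts of receptors, the figure of levels and the likeness to other genes. Its levels were 0.41, 0.33 and 0.40 in sham, 0.43, 0.85 and 0.72 in the 3 h group, 2.02, 1.66 and 1.84 in the 12 h group and 1.02, 1.12 and 2.16 in the 72 h group. The 3 h arrays lay just above the sham arrays, and 72 h replicate 3 stood above all 12 h arrays. The log2 difference of this probe was 0.28 ± 0.27 (SE) at 3 h (limma adjusted p = 0.476), 1.46 ± 0.27 at 12 h (adjusted p = 0.00356) and 1.05 ± 0.27 at 72 h (adjusted p = 0.0201). The 72 h call was lost without 72 h replicate 3 (0.69) and without sham replicate 1 (adjusted p = 0.0522) or sham replicate 2 (adjusted p = 0.0623), and with slide as a block (adjusted p = 0.284). Its rise from 3 to 12 h (1.17, adjusted p = 0.025) was lost (adjusted p between 0.054 and 0.0851) without any 3 h array or without 12 h replicate 1 or 3.

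The RefSeq probe of Tlr4, at chr4:66503724-66503782, had levels of -0.70, -0.92 and -0.40 in sham, 0.68, 0.54 and 0.45 in the 3 h group, 2.12, 2.07 and 1.60 in the 12 h group and 1.35, 0.96 and 1.26 in the 72 h group. None of the 4 groups overlapped with another. By this probe Tlr4 was 2.35-fold higher than sham at 3 h (limma adjusted p = 0.00155), 6.08-fold at 12 h (adjusted p = 1.83e-05) and 3.63-fold at 72 h (adjusted p = 0.00015). The third probe was not well above background on any sham array. By its bounds Tlr4 was at least 5.41-fold higher at 12 h and at least 2.4-fold higher at 72 h. The p-values belong to the measured log2 differences of 2.71 and 1.53 (limma adjusted p = 0.000937 and 0.0197).

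Tlr5, the receptor for bacterial flagellin, fell at 3 and 12 h. By its brightest probe, at chr1:184905770-184905829, the levels were -1.90, -1.80 and -2.29 in sham, -3.22, -3.76 and -4.01 in the 3 h group, -3.34, -3.29 and -3.25 in the 12 h group and -2.20, -2.49 and -3.10 in the 72 h group. All arrays at 3 and 12 h lay below all sham arrays, and the 72 h arrays reached from the sham range to near the 12 h range. Tlr5 was 3.18-fold lower than sham at 3 h (log2 difference -1.67 ± 0.25 SE, limma adjusted p = 0.00181) and 2.45-fold lower at 12 h (-1.29 ± 0.25, adjusted p = 0.0053). At 72 h the difference was -0.60 ± 0.25 (adjusted p = 0.132). The second probe gave -1.42 at 3 h (adjusted p = 0.000929), -1.20 at 12 h (adjusted p = 0.00168) and -0.39 at 72 h (adjusted p = 0.194). Under another background correction, normexp with an offset of 50, the differences of the brightest probe were -0.53 at 3 h and -0.55 at 12 h, short of a fold change of 2.

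Of 12 markers of intestinal epithelium, 0 were called lower at 3 h, 1 at 12 h and 3 at 72 h, and their summed level ran from 1930 to 2130 times the 75th percentile in sham and from 2460 to 2740 at 3 h. Of 6 B cell markers, 0 were called at any time, with a median log2 difference of -1.60 at 3 h and a summed level from 14.4 to 25.5 in sham and from 1.23 to 22.3 at 3 h. The part of B cells in the low levels of Tlr5 and Tlr12 at 3 h was not tested.

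Tlr12, which recognises profilin of protozoan parasites, fell at 3 h and was back near the sham level at 12 h. Its single probe, at chr4:128292690-128292749, gave 0.76, 0.69 and 0.87 in sham, -1.20, -1.30 and -1.03 in the 3 h group, 0.42, 0.69 and 0.61 in the 12 h group and -0.15, 0.62 and 0.73 in the 72 h group. The 3 h arrays stood apart from all others, and 72 h replicate 1 was the lowest of the rest. Tlr12 was 3.86-fold lower than sham at 3 h (log2 difference -1.95 ± 0.21 SE, limma adjusted p = 0.000271). It rose 3.37-fold from 3 to 12 h (adjusted p = 0.00181), and its difference from sham was then -0.20 ± 0.21 (adjusted p = 0.591). At 72 h the difference was -0.37 ± 0.21 (adjusted p = 0.253). Among 8 dendritic cell markers, 0 were called at 3 h, with a median log2 difference of -0.29.

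Tlr13, which recognises bacterial ribosomal RNA, had the largest rise of the 10 receptors by brightest probe at both 12 and 72 h, although the RefSeq probe of Tlr4 differed more, by 2.60 and 1.86. Its brightest probe, at chrX:103355773-103355832, gave 1.13, 1.02 and 0.81 in sham, 1.67, 2.16 and 1.84 in the 3 h group, 3.27, 2.76 and 2.98 in the 12 h group and 2.76, 2.60 and 3.12 in the 72 h group. The sham arrays, the 3 h arrays and the later arrays formed steps with no overlap, and the 12 and 72 h arrays overlapped. Tlr13 was 4.04-fold higher than sham at 12 h (log2 difference 2.01 ± 0.19 SE, limma adjusted p = 9.45e-05) and 3.57-fold higher at 72 h (1.83 ± 0.19, adjusted p = 0.000211). At 3 h the difference of 0.90 ± 0.19 passed the adjusted p (0.00892) and not the fold change of 2. Without 3 h replicate 1 that difference was 1.01 and passed both. The rise from 3 to 12 h was 1.11 (adjusted p = 0.00812) and came to 1.0 without 3 h replicate 1 and 0.97 without 12 h replicate 1, neither called.

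The second Tlr13 probe, at chrX:103354821-103354880, was not well above background on any sham array and was above it on all 9 arrays after cauterization. By its bounds Tlr13 was at least 4.52-fold higher at 3 h, at least 15.3-fold higher at 12 h and at least 10.5-fold higher at 72 h. The p-values belong to the measured log2 differences of 2.37, 4.13 and 3.59 (limma adjusted p = 0.000387, 1.32e-05 and 3.45e-05). Both probes read the same RefSeq transcript and rose together in direction, but differed in size. With slide as a block, Tlr13 was the only receptor of the 10 still called at 72 h (1.87, adjusted p = 0.0286).

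Tlr7, the receptor for single-stranded RNA, rose at 72 h only among the times compared with sham. By its brightest probe, at chrX:163742863-163742922, the levels were -1.14, -1.18 and -1.07 in sham, -1.64, -1.49 and -0.88 in the 3 h group, -1.16, -1.37 and -1.0 in the 12 h group and -0.04, -0.21 and -0.05 in the 72 h group. The 72 h arrays lay above all 9 others. Tlr7 was 2.04-fold higher than sham at 72 h (log2 difference 1.03 ± 0.18 SE, limma adjusted p = 0.00385) and 2.11-fold higher than at 12 h (1.08 ± 0.18, adjusted p = 0.00363). A second probe gave a 3.05-fold rise at 72 h (adjusted p = 0.00371), and the third was above background on 0 arrays. The first probe lay close to the fold change of 2, at 1.0 without 72 h replicate 1 and 0.98 against 12 h without 12 h replicate 2, neither called. All 72 h arrays lay on the second slide, where the single 12 h array gave a difference of 0.90 (adjusted p = 0.187), and with slide as a block the difference from sham was 0.77 (adjusted p = 0.25).

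Tlr8, a neighbour of Tlr7 on the X chromosome that is not among the 10 receptors, rose at all 3 times. Its brightest probe gave -3.64, -3.98 and -4.06 in sham, -2.73, -2.43 and -2.66 in the 3 h group, -2.54, -2.0 and -2.59 in the 12 h group and -0.80, -0.86 and -0.64 in the 72 h group. The 72 h arrays again stood above all others, and no sham array shares their slide. Against sham, Tlr8 was 2.45-fold higher at 3 h, 2.86-fold at 12 h and 8.75-fold at 72 h (limma adjusted p = 0.00114, 0.000328 and 9.37e-06). This probe is annotated to a predicted transcript, and the other 3 probes of Tlr8 were above background on between 0 and 3 arrays. Tlr11, the other receptor for profilin, differed from sham by -0.84, -0.36 and -0.25 and was not called.

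Tlr9, the receptor for unmethylated CpG DNA, changed little in size although it passed the F-test (limma adjusted p = 0.0197). Its levels were 1.11, 1.15 and 1.08 in sham, 0.96, 0.82 and 0.89 in the 3 h group, 0.99, 1.14 and 1.21 in the 12 h group and 1.48, 1.40 and 1.27 in the 72 h group. The 3 h arrays lay below and the 72 h arrays above all sham arrays. The difference from sham was -0.23 ± 0.10 (SE) at 3 h (adjusted p = 0.149), 0.00 at 12 h and 0.27 ± 0.10 at 72 h (adjusted p = 0.0976). The 95% intervals excluded a fold change of 2 at each time, with bounds of -0.45 at 3 h and 0.50 at 72 h.

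Tlr3, the receptor for double-stranded RNA, had levels of -1.79, -1.87 and -1.63 in sham, -1.76, -2.37 and -2.90 in the 3 h group, -2.42, -2.40 and -2.34 in the 12 h group and -2.51, -2.39 and -2.43 in the 72 h group. The 12 and 72 h arrays lay below all sham arrays and the 3 h arrays spread widely. The differences from sham were -0.58, -0.63 and -0.68 in the order of the times (limma adjusted p = 0.107, 0.0827 and 0.062). The second probe gave -0.37, -0.39 and -0.44. The intervals of the brightest probe reached -1.09, -1.13 and -1.19, so that a fold change of 2 was not excluded.

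**Figure D2:**
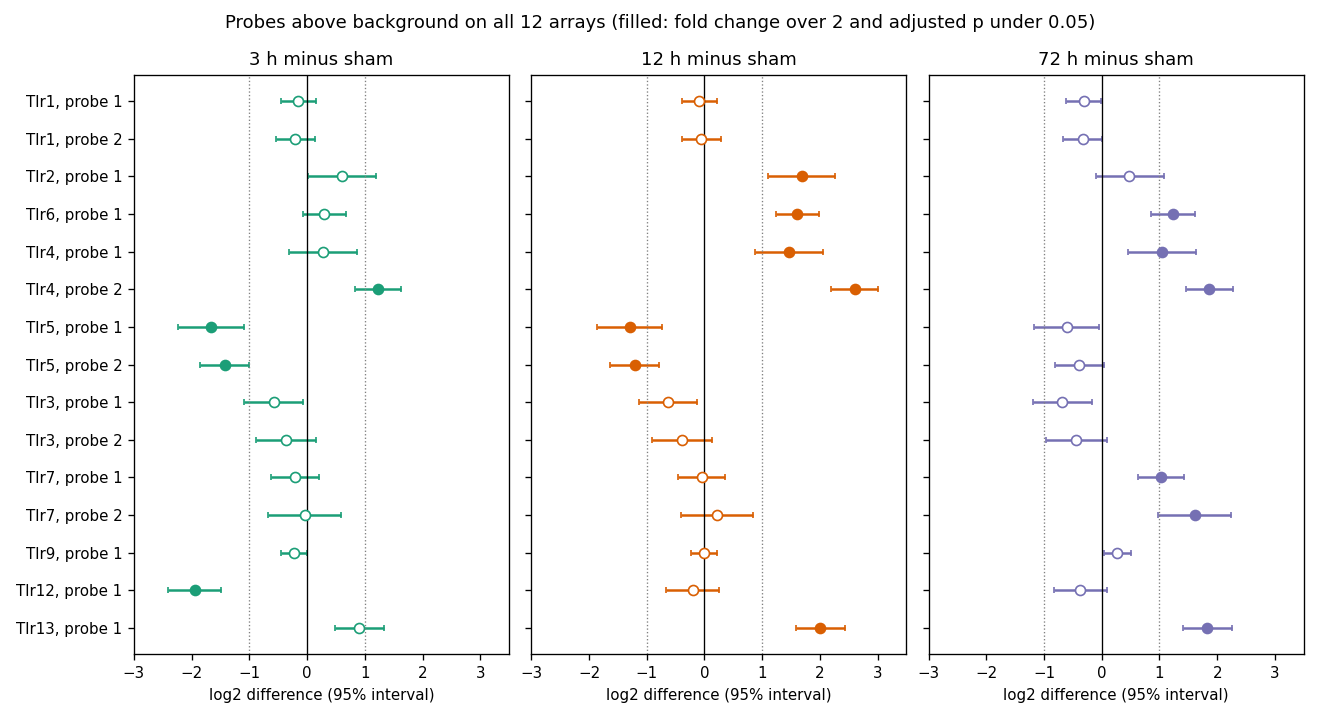
Log2 difference from sham (x axis) with its 95% interval for the 15 probes of the 10 receptors that were above background on all 12 arrays, numbered within a gene from the brightest, with filled points for called probes. Both Tlr5 probes lie left of 0 at 3 and 12 h, and only the second Tlr4 probe is called higher at 3 h.

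Marker lists of neutrophils, monocytes and macrophages, and smooth muscle also changed. Of 13 neutrophil markers, 7 were called higher at 3 h, 10 at 12 h and 8 at 72 h, and their summed level ran from 81.9 to 93 in sham, from 361 to 600 at 3 h, from 826 to 866 at 12 h and from 353 to 643 at 72 h. In sham, the neutrophil genes Cxcr2, Ngp and Ltf were not above background on any array. Tlr2, Tlr4, Tlr6 and Tlr13 were highest at 12 h, the time of the highest neutrophil sum. That sum is led by its brightest probes, and Csf3r, the brightest in sham, differed by -0.34 at 12 h. From 3 to 12 h, 3 of the 13 markers were called higher. S100a8 and S100a9 were not called then (limma adjusted p = 0.151 and 0.305), and Ly6g, Mmp8 and Retnlg differed by 0.04, -0.02 and 0.11. Of 12 monocyte and macrophage markers, 1 was higher and 1 lower at 3 h, 4 were higher and 1 lower at 12 h, and 9 were higher at 72 h, with sums from 170 to 218 in sham, from 274 to 414 at 3 h, from 372 to 414 at 12 h and from 418 to 456 at 72 h. Tlr7 and Tlr8 were highest at 72 h, when the most macrophage markers were called higher. The macrophage sums at 3 and 12 h already lay above sham, but were led by Ly6c2 and Lyz2, their brightest probes. Ly6c2 differed from sham by 2.29 and 2.56 at these times, while Lyz2 was not called (0.44 and 0.79). The median log2 difference over the list stayed small at first (0.15, then 0.18), against 1.63 in the 72 h group. Of 5 smooth muscle markers, 0, 5 and 4 were called lower at the 3 times. The part of these cells in the levels of the receptors was not tested.

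Many partners of the receptors changed as well. Of 94 genes in lists of the pathway, 40 were called higher at 3 h, 39 at 12 h and 36 at 72 h, while 1, 0 and 1 were called lower. Of all genes, 3.26%, 4.1% and 4.55% were called higher. Those shares include genes not above background, whereas 85 of the 94 pathway genes were above it on all 12 arrays. The median log2 difference of the 94 genes was 0.70, 0.62 and 0.66, beside 0.08, -0.01 and -0.14 for all genes. With slide as a block, 21 were called at 72 h, all higher. No sham array shares a slide with the 72 h arrays, and only the 12 h group lies on both slides. The 72 h differences of single partners below carry this limit.

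The plot of pathway lists shows where these calls lay. Of 14 target cytokines and enzymes, 12 were higher at 3 h, 10 at 12 h and 9 at 72 h. Of 15 inhibitors, 10, 9 and 8 were higher. Of 16 kinases and ubiquitin ligases, which carry the signal from the adaptors, 1, 2 and 1 were higher.

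**Figure D3:**
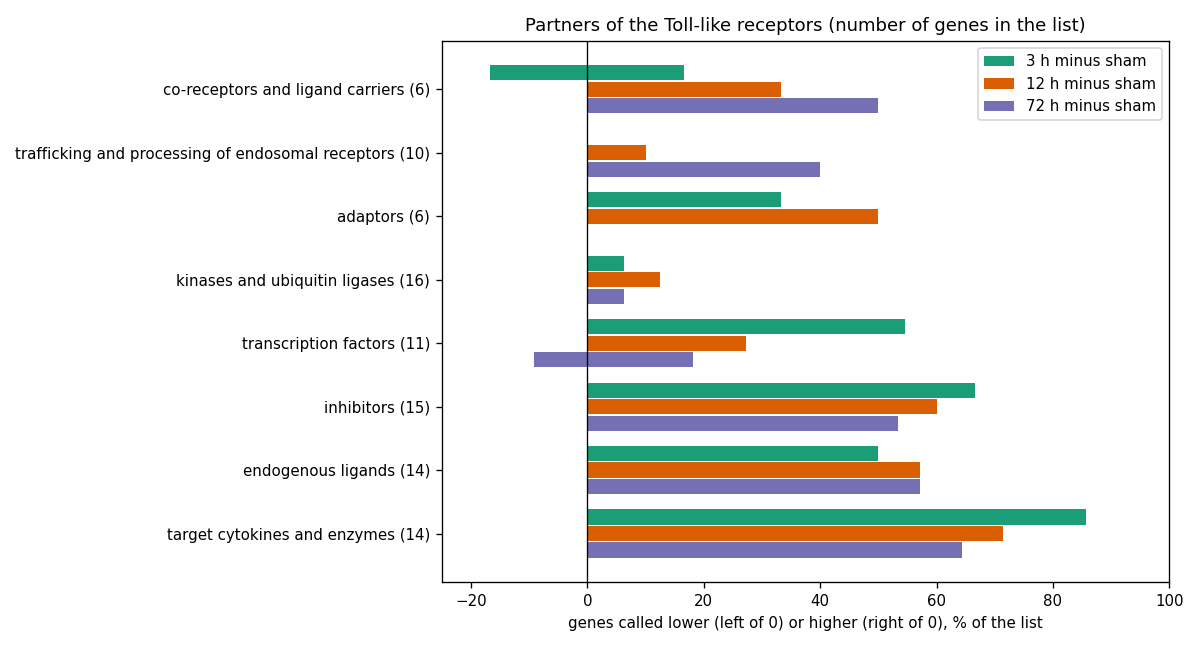
Share of genes in each list of partners (x axis, % of the list) called higher, to the right of 0, or lower, to the left, at 3, 12 and 72 h against sham, with the number of genes in brackets. The lists of inhibitors, endogenous ligands and targets hold most of the calls, and the list of kinases and ubiquitin ligases holds few.

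Among co-receptors of Tlr4, Cd14 rose at all 3 times and the probes of Ly96 differed from each other. Cd14, which hands lipopolysaccharide to Tlr4, had levels of 1.77, 1.73 and 1.94 in sham, 4.56, 5.49 and 5.49 in the 3 h group, 6.58, 6.26 and 6.06 in the 12 h group and 4.51, 4.63 and 5.44 in the 72 h group. It rose by 4.49 on the log2 scale at 12 h (limma adjusted p = 1.46e-05), and no array after cauterization overlapped with sham. Ly96, which encodes the lipopolysaccharide-binding MD-2 protein, has 2 probes, both above background on all arrays. The brighter differed from sham by -0.16, -0.06 and -0.98 and was not called (adjusted p = 0.00152 at 72 h). The other went the opposite way, by 0.90 at 3 h, 1.28 at 12 h, where it was called higher (adjusted p = 0.00264), and 0.77 at 72 h, so no direction is given for Ly96. Lbp, the lipopolysaccharide-binding protein, was called at 12 h (1.93, adjusted p = 0.000304) and 72 h (2.92, adjusted p = 4.16e-05). Cd180, a Toll-like protein of B cells, fell by 2.70 ± 0.79 (SE) at 3 h (adjusted p = 0.0382), when it was above background on 2 of 3 arrays, and its binding partner Ly86 rose by 1.27 at 72 h (adjusted p = 0.0346). Of this list of 6 genes, 1, 2 and 3 were called higher at the 3 times and 1 was lower at 3 h.

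Of 10 genes that carry endosomal receptors to their place or cut them there, 0 were called higher at 3 h, 1 at 12 h and 4 at 72 h, and 6 were not called at 72 h. Unc93b1, the chaperone that carries endosomal Toll-like receptors from the endoplasmic reticulum, had levels of 2.03, 1.87 and 1.93 in sham, 1.02, 1.49 and 1.96 in the 3 h group, 1.97, 1.73 and 1.99 in the 12 h group and 2.93, 2.93 and 2.99 in the 72 h group. Its 72 h arrays lay above all others, as did those of Tlr7. The log2 difference of Unc93b1 at 72 h was 1.0 (limma adjusted p = 0.00617), at the edge of the fold change of 2. The proteases Ctsl, Ctsk and Lgmn rose by 1.53, 3.08 and 1.34 at 72 h (adjusted p = 0.000144, 0.00265 and 0.00048). The levels of Ctsk at 72 h spread widely, at 4.71, 2.99 and 1.99.

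The adaptors Myd88 and Tirap rose, and Ticam1 was not called. Myd88 had levels of 2.03, 2.25 and 2.31 in sham, 3.35, 3.21 and 3.17 in the 3 h group, 3.41, 3.41 and 3.43 in the 12 h group and 2.91, 2.86 and 3.02 in the 72 h group, all above sham. Its log2 difference was 1.05 at 3 h (limma adjusted p = 0.000223), 1.22 at 12 h (adjusted p = 6.34e-05) and 0.74 at 72 h, the last not called. Tirap, which brings Myd88 to Tlr2 and Tlr4, differed by 1.08, 1.26 and 0.68. Ticam1, the adaptor of Tlr3 and Tlr4, differed by -0.11 at 3 h, 0.01 at 12 h and -0.69 at 72 h, and was not called. Pik3ap1, an adaptor to phosphoinositide 3-kinase, rose by 2.41 at 12 h (adjusted p = 0.00266).

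Among kinases, Map3k8, which passes the signal to ERK, differed from sham by 2.61, 3.73 and 2.54 at 3, 12 and 72 h by its brightest probe, all called. Its other probe gave 0.68 at 3 h, not called (limma adjusted p = 0.132), and 1.84 and 1.32 at the later times, both called. Ikbke was called at 12 h by its brightest probe (1.34, adjusted p = 0.0209) and not by its other probe (0.01, adjusted p = 0.981), which was also above background on all arrays. Of 11 transcription factors, 6 were higher at 3 h, 3 at 12 h and 2 at 72 h, when 1 was lower. Cebpb rose by 2.51, 3.25 and 2.86, Atf3 by 2.47, 2.17 and 1.07, and Rel, a subunit of NF-κB, by 1.47 and 1.60 at 3 and 12 h. Irf7, which acts below Tlr7 and Tlr9 on interferon genes, fell by 1.88 at 72 h (limma adjusted p = 0.000633), the time at which Tlr7 rose. With slide as a block, neither the fall of Irf7 nor the rise of Tlr7 was called at 72 h.

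Of the 15 inhibitors, 10 rose at 3 h and 5 were not called. Irak3, which blocks signalling at Myd88, had levels of -2.02, -1.93 and -1.73 in sham, -0.54, 0.09 and 0.33 in the 3 h group, 1.88, 1.17 and 1.72 in the 12 h group and 0.14, 0.35 and 1.52 in the 72 h group. All arrays after cauterization lay above sham, and the log2 difference was 1.85, 3.48 and 2.56 at the 3 times (limma adjusted p = 0.00602, 0.000156 and 0.00111). Tnip3, Socs3 and Dusp1, inhibitors of NF-κB, STAT3 and MAP kinases, rose by 4.63, 4.40 and 3.79 at 3 h. Sigirr, an inhibitory receptor of epithelium, differed by -0.14, -0.09 and -0.48 and was not called.

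**Figure D4:**
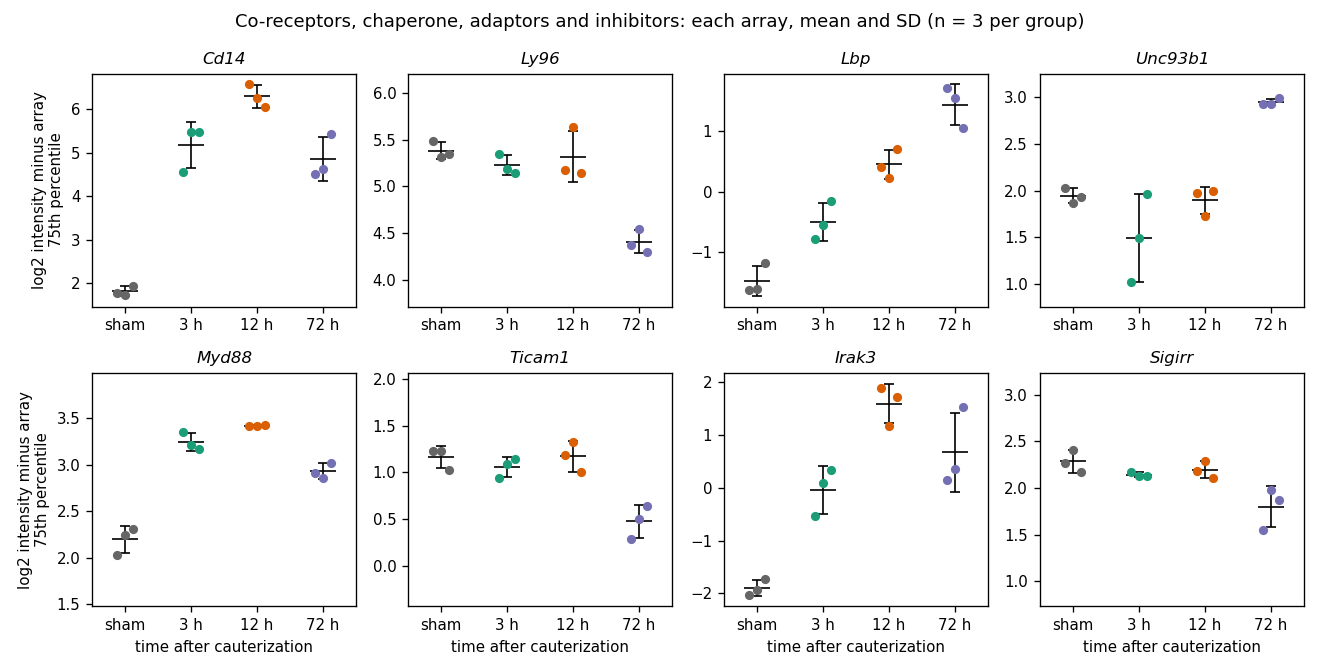
Level of 8 partners of the receptors by their brightest probe (log2 intensity relative to the 75th percentile of its array) on each of 3 arrays per group, with black bars for the mean and whiskers for the SD. Cd14, Lbp, Myd88 and Irak3 are higher on all arrays after cauterization than on the sham arrays, Unc93b1 is highest at 72 h, and Ticam1 and the plotted probe of Ly96 are lowest at 72 h.

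Single genes among the ligands from the tissue itself and the targets of the pathway had large differences, although at 3 h the median of the endogenous ligands (1.0) was below that of the inhibitors (2.16). S100a9, a neutrophil protein that can act on Tlr4, rose by 10.06, 10.85 and 10.07 on the log2 scale, and the acute-phase protein Saa3 by 4.33, 5.69 and 6.14. The heat shock genes Hspa1a and Hspa1b rose by 6.20 and 4.91 at 3 h, and at 72 h their differences were 0.65 and 0.26, not called. The targets Cxcl1, Il1b, Acod1 and Il6 rose by 8.58, 6.74, 6.36 and 7.61 at 3 h and were still raised by 7.16, 7.36, 6.37 and 7.20 at 72 h.

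The genes most like each receptor, by its brightest probe, were found among 15102 genes above background on all 12 arrays. Likeness was the root mean square difference between the 4 centred group means. These distances are descriptions over 4 groups and say nothing of function. Closest were Creld2 and Exoc3l4 to Tlr2 (0.0241 and 0.0573 on the log2 scale), Nucb2 and Iigp1 to Tlr4 (0.0587 and 0.0659) and Zfp536 and Iglon5 to Tlr5 (0.078 and 0.0864). Vav1 and Ccdc88b were closest to Tlr6 (0.0516 and 0.0673), Hsd17b14 and Snora34 to Tlr7 (0.0258 and 0.0399), and Vezt and Zfp119b to Tlr9 (0.0168 and 0.017). Tlr12 and Tlr13 had the most distant neighbours of the 8 receptors that passed the F-test, at 0.148 and 0.196 for Fut7 and Fam78a and at 0.111 and 0.12 for Atp8b4 and Ifitm1.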

How the data were processed

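RNA of the cecum was measured on 12 1-colour Agilent SurePrint G3 Mouse GE v2 arrays, 3 biological replicates for each of sham, 3, 12 and 72 h. The authors deposited scanner output with a background-subtracted intensity per spot, made with Agilent Feature Extraction 11.5.1.1 and not normalized between arrays, and a table of log2 values that the authors scaled to the 75th percentile and that is centred on each row's median. Probe coordinates are those of mm9, and no genome of this build was used, so exons were not assigned.

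From log2 intensity, the 75th percentile over non-control probes was subtracted on each array. Outlier spots and controls were left out, and spots of a probe were averaged. In R 4.3.3, limma 3.58.1 fitted the 4 group means to the 12 arrays, and p-values were adjusted by Benjamini-Hochberg over 56605 probes. Each gene stood as its brightest probe, and it was called at a fold change over 2 and an adjusted p under 0.05. A probe not well above background in a group got a lower bound of its fold change. For it, values under the lowest signal of any probe well above background on that array were raised to that signal. This floor is not the detection limit of the probe itself, and the p-values are those of the measured differences. The limma fit of the 4 groups was tested on simulated data first, with changes set at 3 h only. Sequences were read with Python 3.11.15. Named were all 10 receptors with every probe, 8 fixed partners, up to 4 genes per list with the largest change against sham among genes that were called and above background in the 2 groups, and the 2 genes most like each receptor that passed the F-test. The text names Cd180 beside this rule, chosen after its values were seen. Not every gene the rule picks is named. The receptors, lists and tests were chosen with earlier results of these data known. The number of arrays limits the precision, and the p-values measure the spread between 3 mice per group. Alternatives were other scalings, background corrections, filters, floors, variance models, probe rules, thresholds and tests, the values deposited by the authors, slide and replicate blocks, each slide alone, and leaving out each array.

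The marker lists not described above gave the following calls. Of 6 T cell markers, 0 were called at any time. Of 5 pan-leukocyte markers, 3 were higher at 12 h and 1 at 72 h. Of 5 mesothelial markers, 2 were lower at 3 and 12 h and 2 were higher at 72 h. Of 5 endothelial markers, 3 were higher at 72 h.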

Additional observations from a re-analysis of the deposited data

How the results depend on the processing

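Of 1440 alternative values of the log2 differences of the 10 receptors, 1377 kept their call, 59 lost it, 4 gained it and 0 changed direction where called. Most of these differences were not called in the main fit and had no call to lose. Tlr4 at 72 h lost its call in 8 of 28 alternatives. From 3 to 12 h, Tlr2 and Tlr4 lost theirs in 8 and 7 of 29. With normexp background correction, 1 receptor was called at 3 h, 1 at 72 h and 1 between 12 and 72 h. With slide as a block, 1 receptor and 21 pathway genes were called at 72 h, 3 receptors between 3 and 12 h and 0 between 12 and 72 h. Within slide 2, where 12 h has 1 array that is assumed to vary like the 72 h arrays, 0 were called between 12 and 72 h, and within slide 1 the counts were 2 at 3 h, 5 at 12 h and 5 between them. Between 12 and 72 h, 1 receptor was called with only the 2 groups compared and with probes of a gene averaged. A t-test that paired same-numbered arrays also called 1 before adjustment. The paper's methods name a paired t-test for 2 groups in general and no test for the arrays. After Benjamini-Hochberg adjustment, the paired t-test on 3 pairs called 0 receptors and 0 pathway genes in any comparison. The cause of these differences was not tested. Leaving out each array in turn gave 2 to 3 receptors at 3 h, 5 each time at 12 h, 3 to 4 at 72 h, 2 to 5 between 3 and 12 h and 1 to 2 between 12 and 72 h, 7 to 9 passing the F-test, and 36 to 42, 37 to 42 and 33 to 38 pathway genes at 3, 12 and 72 h. With the replicate number as a block, 2, 5 and 4 receptors were called against sham, and Tlr2 between 3 and 12 h was lost (adjusted p = 0.0687). The deviations of same-numbered arrays from their group means correlated across probes between -0.162 and 0.0866, so no pairing by number was seen. The brightest probe with a RefSeq accession, chosen after seeing the data, gave 3, 5 and 4 receptors, with Tlr4 called at 3 h. Dim probes limit Tlr4, Tlr7, Tlr8 and Tlr13, each with a probe near background. Low signal also limits Tlr5, with mean levels of -3.66 at 3 h and -3.29 at 12 h by its brightest probe. Both its calls were lost with normexp (-0.53 and -0.55), although it was above background on all arrays.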
